A study of Mus musculus with 10 samples.

Results

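Calcium release units are the junctions of striated muscle at which the sarcoplasmic reticulum, the calcium store of the cell, meets the plasma membrane and its tubules. Their core was taken here as 10 of the 23337 genes listed for each library, chosen by gene symbol for what their proteins do at the junction. These are the release channels Ryr1, Ryr2 and Ryr3, the calcium-binding proteins Casq1, Casq2 and Hrc, the linkers Trdn and Asph, and the membrane tethers Jph1 and Jph2. In skeletal muscle the voltage sensor of the tubule opens RYR1 by direct contact, whereas in the heart calcium that enters through the L-type channel opens RYR2. Calsequestrin buffers calcium inside the store, triadin (Trdn) and junctin (a product of Asph) link it to the channel, HRC binds calcium in the same lumen, and junctophilins hold the membranes of the junction at a fixed distance.

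Bulk RNA-Seq of poly(A) RNA was available for the left ventricle (LV) and skeletal muscle (SkM) of 5 mice, with 1 library per tissue and mouse. There were 3 E0del/+ mice, which carry on 1 allele a deletion of the enhancer E0 in intron 1 of Ttn, and 2 WT mice. All were C57BL/6/129SvEv hybrids, and neither their sex and age nor the skeletal muscle that was taken is in the labels. Xist, which is expressed in female mice, was at 0.343 to 4.88 CPM in both tissues of WT replicate 2 and E0del/+ replicate 3 and at 278.5 to 805.6 CPM in those of the other 3 mice. SkM of WT replicate 1 had both, with Ddx3y of chromosome Y at 12.4 CPM beside Xist at 396.9 CPM. The batch tag in the labels equals the replicate number, so that both genotypes are present in batches 1 and 2, and E0del/+ replicate 3 is the only mouse in batch 3. Total counts lay between 11010021 and 15361520 in LV (median 11463197) and between 13892390 and 17484873 in SkM (median 15009186). A value of 3 counts corresponded to 0.172 to 0.273 CPM (counts scaled to the library total), which is the upper limit that a count of 0 allows. Intervals and limits of this kind cover counting error only.

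Ttn, the gene whose enhancer was deleted, was read first in every library. In LV it stood at 7959 CPM in WT replicate 1 and 9344 CPM in WT replicate 2, and at 7737, 5560.1 and 6597 CPM in E0del/+ replicates 1 to 3. In SkM it stood at 24204.5 and 15856 CPM in WT and at 20092, 18854 and 13585 CPM in E0del/+. All 3 E0del/+ LVs were below the WT LVs, replicate 1 by a narrow margin, and the genotypes overlapped in SkM. The log2 difference was -0.25 in LV without WT replicate 2 (SE 0.39) and -0.17 in SkM (SE 0.24), and neither passed edgeR's quasi-likelihood test (adjusted p = 0.9998 for both). In LV it was -0.45 with WT replicate 2 kept, -0.51 with the replicate block as well and -0.083 without E0del/+ replicate 2. With the replicate block the SkM value was -0.0095 and without WT SkM replicate 1 it was 0.02. The deletion lies in an intron, so counts over exons do not read it, and the genotype labels could not be checked by them.

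The WT LV replicate 2 library stood apart from the other LVs. The 10 markers of fast skeletal fibres summed to 38349 CPM in it, against 588.3 to 1650.2 CPM in the other 4 LVs and 152522 to 172673 CPM in SkM. The myosin gene Myh4 was the highest of them in this library and in SkM, and Acta1 in the other LVs. Each of the 10 genes was at 16.8% to 25.1% of its mean in SkM (median 23.2%), whereas none exceeded 3.76% in another LV. The 2 satellite cell markers, Pax7 and Myf5, were at 0 in the other 4 LVs and summed to 1.17 CPM in this library and 2.63 to 4.43 CPM in SkM. Markers of fat tissue summed to 279.0 CPM in it, against 1.83 to 23.7 CPM in the other LVs and 8.69 to 1183 CPM in SkM. Among the calcium release genes, Ryr1 was 237 times its mean in the other LVs, Casq1 43.9 times, Jph1 5.46 times and Trdn 2.23 times. Casq2 lay below the range of the other LVs at 0.715 times their mean, and Ryr2, Ryr3, Asph, Jph2 and Hrc lay within it. Ryr1 stood at 24.4% and Casq1 at 25.3% of their SkM mean, within 1 percentage point of the highest fast marker, while Jph1 (33.3%) and Trdn (35.9%) are also expressed in the other LVs. This library is therefore given apart, and values with it are stated as such.

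The tissue labels matched their markers in the remaining libraries. The 7 ventricular markers, with Myh6 the most abundant in LV, summed to 79803 to 92439 CPM in the 4 LVs, 63119 CPM in WT LV replicate 2, and 191.1 to 2235 CPM in SkM. Atrial markers summed to 222.2 to 592.7 CPM in the 4 LVs, led by Nppa, and Bmp10 was at 0 in 3 of them. Vessel, connective tissue and nerve genes were also present. Endothelial markers summed to 857.9 to 1458 CPM in the 4 LVs and 79.2 to 177.5 CPM in SkM, fibroblast markers to 599.5 to 1067.5 and 93.2 to 295.2 CPM, smooth muscle markers to 494.9 to 758.1 and 124.9 to 216.8 CPM, and nerve markers to 12.8 to 28.0 and 13.4 to 82.2 CPM. Blood markers summed to 129.2 to 160.6 CPM in the 4 LVs and 13.3 to 116.8 CPM in SkM, both alpha-globin genes being at 0 throughout. In bulk tissue, fewer cells of a type and less RNA per cell cannot be told apart.

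LV and SkM were then compared within the 4 mice other than WT replicate 2 to ask which isoforms of the release unit each tissue used. Ryr2 and Casq2 prevailed in LV and Ryr1 and Casq1 in SkM. The other receptor of each tissue, Ryr1 in LV (rank 12180 to 12911 by RPKM) and Ryr2 in SkM (11848 to 13758), was at trace levels. Casq1 in LV (5127 to 8013) and Casq2 in SkM (2722 to 7568) were low but ranked higher. Trdn, Jph1 and Jph2 were more abundant in SkM, whereas Hrc was abundant in both tissues and Asph was at nearly the same CPM. In the paired quasi-likelihood test of edgeR, with libraries scaled by the trimmed mean of M-values (TMM), 8 of the 10 genes passed an adjusted p of 0.05, against 61.3% of the 13375 genes tested (DESeq2 called 8 of the 10 also). An unadjusted p under 0.05 was found for 8 of the 10 and for 65.5% of all genes. Of the 10, 2 were higher in LV (31.5% of all genes tested) and 6 were higher in SkM (29.8%). Their median log2 difference, LV minus SkM, was -0.95 against 0.02 over all genes, and their median absolute difference was 3.85 against 0.68. Scaling by total counts without TMM moved the median of all genes by 0.65 towards LV, and 81.9% of the genes called were then higher in LV, against 51.3% with TMM. The direction turned on this choice for Asph and Hrc among the 10, whose log2 differences are therefore also given relative to the median of all genes.

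**Figure D1:**
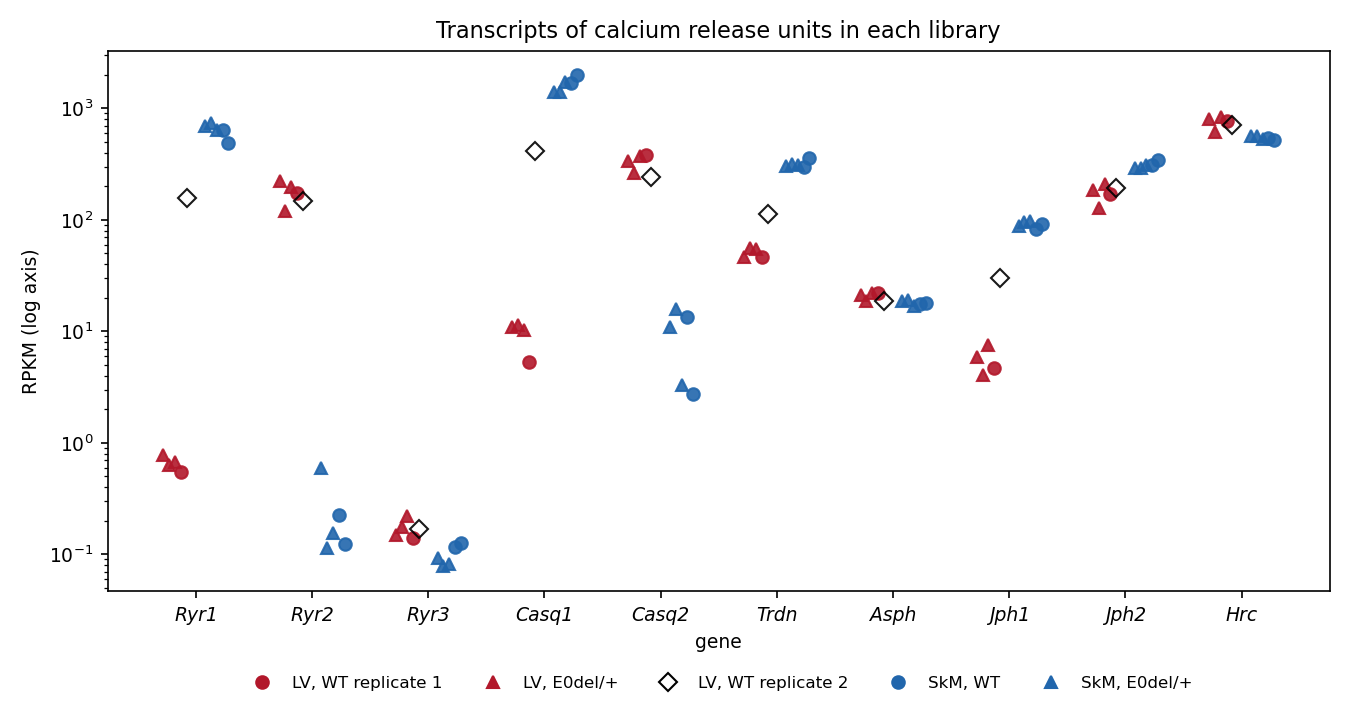
RPKM (log axis) of the 10 genes in each library, with LV in red, SkM in blue, triangles for E0del/+, circles for WT and open diamonds for WT LV replicate 2. Ryr1 lay between 0.545 and 0.776 RPKM in the 4 LVs, at 156.0 RPKM in WT LV replicate 2 and between 487.1 and 737.3 RPKM in SkM.

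The release channels have the longest summed exons of these genes. In mm10, Ryr1 lies on the minus strand of chromosome 7 from 29003340 to 29125151, with 106 exons and 15362 bp of summed exon length. Ryr2 lies on the minus strand of chromosome 13 from 11553103 to 12106945, with 105 exons and 16813 bp. Ryr3, the isoform first described in brain, lies on the minus strand of chromosome 2 from 112631382 to 113030331, with 104 exons and 15408 bp. The libraries carry no strand information, and GENCODE M21 places exons of the antisense gene Gm26604 over 763 bp of Ryr1 exons and of Aven over 889 bp of Ryr3 exons, so that these reads cannot be told apart.

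Promoter windows of RefSeq (GRCm38.p6), from 250 bases before to 50 bases after the start site, exist for 6 of the 10 genes: Ryr1, Ryr2, Casq1, Casq2, Jph2 and Hrc. The windows of the 4 genes that exchange places between the tissues are printed 5′ to 3′ on the strand of the gene, so that the paired promoters can be read side by side. Both strands were searched for motifs of muscle and heart factors (the E-box CAGCTG, the TEAD site CATTCC, the GATA site AGATAA, the NKX2 site TNAAGTG, MEF2 and CArG) and for the TATA box (TATAAA) and GC box (GGGCGG), and capitals mark the matches. The regions are chr7:29125102-29125401 for Ryr1, chr13:12106896-12107195 for Ryr2, chr1:172219846-172220145 for Casq1 (all minus strand) and chr3:102086165-102086464 for Casq2 (plus strand).
Ryr1: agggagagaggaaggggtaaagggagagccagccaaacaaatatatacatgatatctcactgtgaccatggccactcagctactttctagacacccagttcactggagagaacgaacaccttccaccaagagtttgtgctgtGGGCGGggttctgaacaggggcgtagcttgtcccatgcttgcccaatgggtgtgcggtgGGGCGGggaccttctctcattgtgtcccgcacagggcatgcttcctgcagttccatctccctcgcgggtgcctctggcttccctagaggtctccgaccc
Ryr2: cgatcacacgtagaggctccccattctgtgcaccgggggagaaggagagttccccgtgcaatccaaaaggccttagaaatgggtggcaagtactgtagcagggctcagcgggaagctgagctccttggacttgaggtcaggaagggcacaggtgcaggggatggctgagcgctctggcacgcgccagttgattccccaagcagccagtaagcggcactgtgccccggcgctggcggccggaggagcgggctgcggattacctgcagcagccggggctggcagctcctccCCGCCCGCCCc
Casq1: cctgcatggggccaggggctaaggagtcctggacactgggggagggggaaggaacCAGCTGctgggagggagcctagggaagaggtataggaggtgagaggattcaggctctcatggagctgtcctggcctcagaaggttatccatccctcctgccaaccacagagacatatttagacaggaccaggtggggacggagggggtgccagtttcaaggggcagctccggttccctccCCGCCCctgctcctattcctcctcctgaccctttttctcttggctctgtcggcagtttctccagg
Casq2: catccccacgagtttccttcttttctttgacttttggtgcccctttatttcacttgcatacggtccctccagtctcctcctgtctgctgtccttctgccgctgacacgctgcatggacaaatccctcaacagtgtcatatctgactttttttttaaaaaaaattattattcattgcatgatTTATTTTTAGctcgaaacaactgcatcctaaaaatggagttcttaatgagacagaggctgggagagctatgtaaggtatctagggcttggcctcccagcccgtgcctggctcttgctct
Ryr1 holds the GC box at -108 and -49 from the start site, and Ryr2 holds it on the opposite strand at 40 and 44, where the matches overlap each other. The start site of RefSeq for Casq2 lies upstream of the gene start deposited with the counts, so that its window, counted from the former, ends at 102086464, before the latter. Casq1 holds the E-box at -195 and the GC box on the opposite strand at -15, whereas Casq2 holds a MEF2 match at -69 (TTATTTTTAG). Jph2 and Hrc, not printed, hold the E-box and the GC box. None of the 6 genes had a TEAD, GATA, NKX2 or CArG site or a TATA box in its window, and no match overlapped one of another motif. Of 32851 windows of all genes, the GC box was in 35.7%, the E-box in 16.3%, the TEAD site in 14.7%, the TATA box in 13.6%, the NKX2 site in 11.5%, the GATA site in 11.2%, MEF2 in 3.19% and CArG in 1.63%. GC content was 56.7% in the Ryr1 window, 65.3% in Ryr2, 60.3% in Casq1 and 44.7% in Casq2. These matches are letters in a window, and binding to them was not measured.

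Ryr1 encodes the release channel of skeletal muscle. Its level in LV was 11.9, 9.81 and 10.4 CPM in E0del/+ replicates 1 to 3 and 8.37 CPM in WT replicate 1, against 2396 CPM in WT replicate 2. In SkM it was 10704, 11327 and 9807 CPM in E0del/+ and 9813 and 7482 CPM in WT. Every SkM library was far above every LV, and WT LV replicate 2 lay between them. The log2 difference, LV minus SkM, was -10.66 (SE 0.31, 95% CI -11.40 to -9.93), a level 1622-fold lower in LV and lower in 4 of 4 mice (adjusted p = 4.24e-07 in edgeR). With all 5 mice it was -9.90 (SE 1.66). The 4 LV values rest on 108 to 183 counts and reached at most 0.121% of the SkM mean, within the range of fast fibre markers in the same LVs (0.0996% for Actn3 to 3.76% for Acta1, Myh4 at 0.108%), and whether they came from heart cells was not tested. Ryr1 was there at ranks 12180 to 12911 of the genes by RPKM, whereas it ranked 41 to 62 in SkM.

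Ryr2, the cardiac release channel, had the opposite pattern. In LV it stood at 3792, 2029 and 3313.5 CPM in E0del/+ replicates 1 to 3, 2938 CPM in WT replicate 1 and 2488.5 CPM in WT replicate 2. In SkM it stood at 9.97, 1.93 and 2.60 CPM in E0del/+ and 3.82 and 2.06 CPM in WT, from 29 to 162 counts. E0del/+ replicate 2 was the lowest LV and E0del/+ replicate 1 the highest in both tissues, and the tissues did not overlap. LV exceeded SkM by 8.93 on the log2 scale (SE 0.37, 95% CI 8.07 to 9.78), 486-fold and in 4 of 4 mice (adjusted p = 1.67e-06 in edgeR). All 5 mice gave 9.06 (SE 0.37).

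Ryr3 was low in both tissues. It had 28 to 39 counts in the LVs, at 2.28, 2.72, 3.40, 2.15 and 2.61 CPM in E0del/+ replicates 1 to 3 and WT replicates 1 and 2. In SkM it had 18 to 34 counts, at 1.42, 1.20, 1.27, 1.80 and 1.94 CPM in the same order. All LV values were above all SkM values by CPM, but the log2 difference after TMM was 0.23 (SE 0.32, 95% CI -0.50 to 0.97) and did not pass the test (adjusted p = 0.546 in edgeR, higher in LV in 3 of 4 mice).

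Because the 3 receptors differ in length, their shares were taken from RPKM. Ryr1 made up 0.380% ± 0.0981 (SD, n = 4) of receptor RPKM in LV and 99.95% ± 0.0317 in SkM, and Ryr2 made up 99.52% ± 0.130 in LV and 0.0401% ± 0.0310 in SkM. Ryr3 held 0.1005% ± 0.0357 in LV and 0.0137% ± 0.00326 in SkM. Each share differed in the same direction in 4 of 4 mice, and in the exact two-sided sign permutation test each reached the smallest p that 4 mice allow, 2 of 16 sign assignments being as extreme. In WT LV replicate 2 the channels were almost evenly split, with Ryr1 at 51.3% and Ryr2 at 48.7% of receptor RPKM. By counts, Ryr1 held 26626 of 54309 receptor reads there (49.0%, 95% Wilson interval 48.6% to 49.5%). With this mouse the mean difference in the Ryr1 share moved from -99.57 to -89.39 percentage points (exact two-sided p = 0.0625, the smallest for 5 mice).

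Calsequestrins are the main calcium buffers of the store. Casq1, the skeletal isoform, lies on the minus strand of chromosome 1 from 172209894 to 172219895 (11 exons, 1874 bp), and Casq2, the cardiac isoform, on the plus strand of chromosome 3 from 102086510 to 102146512 (11 exons, 2459 bp). Exons of the antisense gene Gm17224 cover 156 bp of Casq1. In LV, Casq1 was at 20.5, 21.2 and 19.2 CPM in E0del/+ replicates 1 to 3, 9.91 CPM in WT replicate 1 and 777.0 CPM in WT replicate 2. In SkM it was at 2654, 2615 and 3199 CPM in E0del/+ and 3159 and 3711 CPM in WT. WT replicate 1 was the lowest LV and WT replicate 2 the highest SkM library, and no LV reached the SkM range. Outside WT LV replicate 2, Casq1 in LV reached at most 0.693% of its SkM mean. Fast fibre markers in the same LVs reached at most 0.0996% (Actn3) to 3.76% (Acta1), with Mybpc2 at 0.691%. Whether these Casq1 reads came from heart cells was not tested. The log2 difference was -8.05 (SE 0.31, 95% CI -8.78 to -7.33), 266-fold lower in LV and lower in 4 of 4 mice (adjusted p = 1.27e-06 in edgeR), and -7.36 (SE 1.00) with all 5 mice.

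Casq2 was at 828.5, 646.4 and 923.0 CPM in the LVs of E0del/+ replicates 1 to 3, 933.7 CPM in WT replicate 1 and 595.6 CPM in WT replicate 2. SkM values were 26.9, 38.9 and 8.09 CPM in E0del/+ and 33.2 and 6.75 CPM in WT. The SkM libraries fell into a higher group of 3 and a lower pair, E0del/+ replicate 3 and WT replicate 2, with 5.77 times between the extremes, and Casq2 ranked 2722 to 3920 by RPKM in the former and 7547 and 7568 in the latter. LV was higher by 4.46 on the log2 scale (SE 0.48, 95% CI 3.34 to 5.58), 22.0-fold and in 4 of 4 mice (adjusted p = 0.000156 in edgeR), and by 4.74 (SE 0.48) with all 5 mice. Casq1 made up 2.83% ± 1.15 (SD, n = 4) of calsequestrin RPKM in LV and 99.28% ± 0.386 in SkM, a difference of -96.45 percentage points ± 1.35 in 4 of 4 mice (exact two-sided test, 2 of 16 sign assignments as extreme). In WT LV replicate 2, Casq1 held 63.1% and Casq2 36.9%.

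The low Casq2 level in SkM varied alongside genes of slow fibres, which are known to express this isoform beside Casq1. The 5 slow fibre markers, with Myh7 the most abundant, summed to 1424, 1886 and 207.1 CPM in the SkM of E0del/+ replicates 1 to 3 and to 1021.5 and 100.7 CPM in WT replicates 1 and 2. The same 3 libraries were high and the same pair was low, and none of the 5 markers was at 0. The low pair was also the one with low Xist (0.422 and 0.343 CPM, against 278.5 to 396.9 CPM in the other 3), so that sex and this split cannot be told apart. Atp2a2, the calcium pump of heart and slow fibres, was at 673.1, 715.8, 146.0, 424.0 and 75.7 CPM in that order. Ryr2 did not share this split: SkM of E0del/+ replicate 1 alone was high, at 9.97 CPM against 1.93 to 3.82 CPM in the other 4. That library also had the highest Myh6 of the SkM libraries, at 213.6 CPM against 37.8 to 127.9 CPM, and the highest Tnnt2, at 30.3 CPM against 7.99 to 11.7 CPM. Over all 7 ventricular markers, E0del/+ replicates 1 to 3 summed to 1420.1, 1531 and 191.1 CPM and WT replicates 1 and 2 to 2235 and 227.1 CPM, with Actc1 the most abundant in SkM and none at 0. The part of fibre type or of heart transcripts in these values was not tested.

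**Figure D2:**
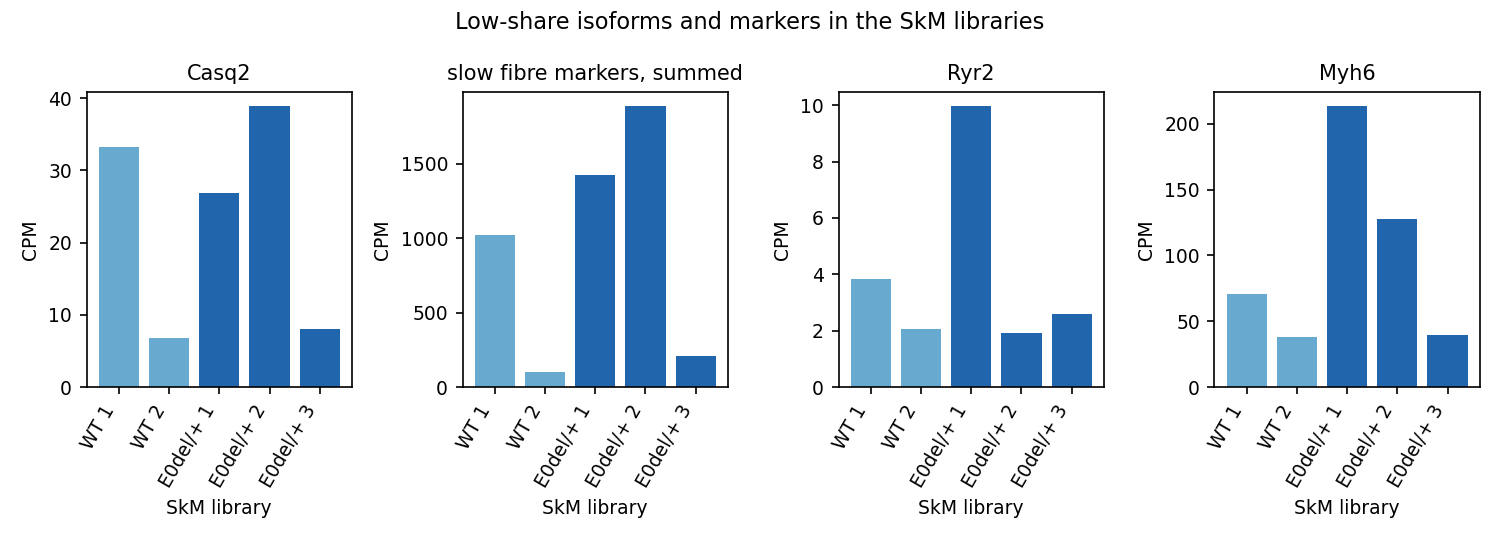
CPM of Casq2, of the summed slow fibre markers, of Ryr2 and of Myh6 in the 5 SkM libraries (1 bar per library, WT in light blue, E0del/+ in dark blue). Casq2 and the slow markers were both low in WT replicate 2 (6.75 and 100.7 CPM) and E0del/+ replicate 3 (8.09 and 207.1 CPM), whereas Ryr2 was highest in E0del/+ replicate 1 at 9.97 CPM.

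Junctophilins differed between tissues in proportion rather than by exchange. Jph1, the skeletal isoform, lies on the minus strand of chromosome 1 from 16994940 to 17097889 (5 exons, 4807 bp), and Jph2, found in heart and skeletal muscle, on the minus strand of chromosome 2 from 163336242 to 163397993 (6 exons, 4255 bp). The antisense gene Gm28376 covers 34 bp of Jph1 exons. Jph1 was at 28.4, 19.7 and 36.2 CPM in the LVs of E0del/+ replicates 1 to 3, 22.4 CPM in WT replicate 1 and 145.6 CPM in WT replicate 2. The SkM libraries had 423.9, 460.5 and 467.2 CPM in E0del/+ and 395.5 and 441.6 CPM in WT. No LV reached the SkM range, WT replicate 2 included. LV was lower by a log2 difference of -4.71 (SE 0.24, 95% CI -5.26 to -4.16), 26.2-fold, in 4 of 4 mice (adjusted p = 4.12e-06 in edgeR), and the value was -4.27 (SE 0.45) with all 5 mice.

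Jph2 was at 786.3, 547.7 and 884.5 CPM in the LVs of E0del/+ replicates 1 to 3 and at 722.2 and 828.9 CPM in WT. Values in SkM were 1235, 1234 and 1315 CPM in E0del/+ and 1319 and 1455 CPM in WT. Here the tissues were close, and still every SkM library was above every LV. The log2 difference was -1.47 (SE 0.20, 95% CI -1.94 to -0.99), 2.76-fold lower in LV and in 4 of 4 mice (adjusted p = 0.000577 in edgeR), and -1.48 (SE 0.20) with all 5 mice. Jph1 held 3.09% ± 0.335 (SD, n = 4) of junctophilin RPKM in LV and 23.3% ± 1.65 in SkM, so that Jph2 was the larger part in both tissues. The difference in the Jph1 share was -20.17 percentage points ± 1.42, in 4 of 4 mice (exact two-sided test, 2 of 16 sign assignments as extreme), and Jph1 held 13.5% in WT LV replicate 2.

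**Figure D3:**
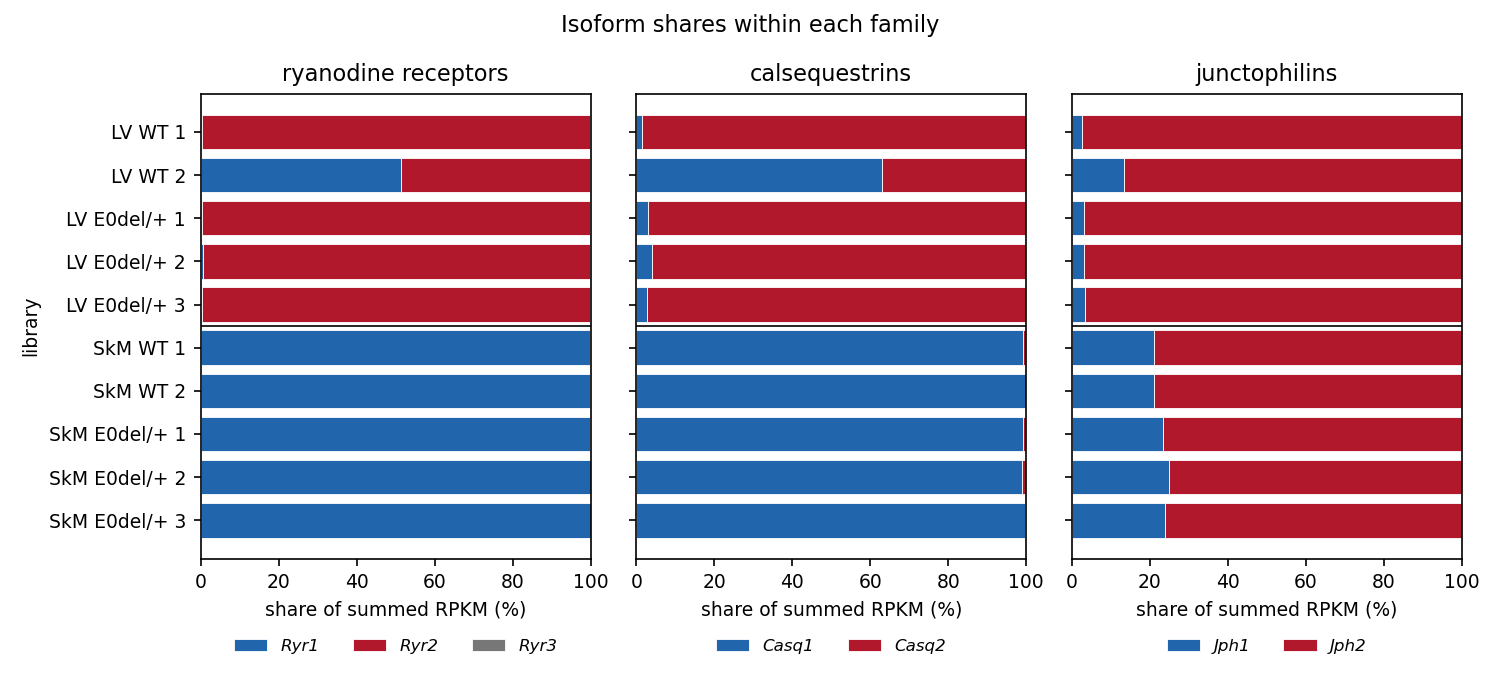
Share of each isoform in the summed RPKM of its family (percent, 1 bar per library, the line separating LV from SkM). Ryr2 held 99.3% to 99.6% of receptor RPKM in 4 LVs and 48.7% in WT LV replicate 2, Casq1 98.9% to 99.9% of calsequestrin RPKM in SkM, and Jph2 75.2% to 79.0% of junctophilin RPKM in SkM.

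Of the linkers, Trdn anchors calsequestrin to the release channel. It lies on the plus strand of chromosome 10 from 33083483 to 33476709, with 38 exons and 4514 bp, and its cardiac and skeletal splice forms cannot be told apart in counts per gene. In LV it was at 211.7, 251.5 and 248.8 CPM in E0del/+ replicates 1 to 3, 208.2 CPM in WT replicate 1 and 513.4 CPM in WT replicate 2. SkM values were 1373, 1429 and 1413 CPM in E0del/+ and 1332 and 1610.4 CPM in WT. The 4 LVs lay close together and well below SkM. The log2 difference was -3.25 (SE 0.16, 95% CI -3.63 to -2.87), 9.51-fold lower in LV and in 4 of 4 mice (adjusted p = 4.01e-06 in edgeR), and -3.07 (SE 0.22) with all 5 mice.

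Asph gives rise to junctin, to the related protein junctate and to an aspartyl hydroxylase that many cell types express, and counts per gene do not separate these products. It lies on the minus strand of chromosome 4 from 9449085 to 9669162 (30 exons, 12294 bp), and Clvs1, on the other strand, shares 2302 bp (18.7%) of these exons. It was at 261.6, 227.9 and 270.9 CPM in the LVs of E0del/+ replicates 1 to 3 and at 270.0 and 230.4 CPM in WT. In SkM it was at 228.0, 232.8 and 209.0 CPM in E0del/+ and 217.7 and 220.8 CPM in WT. The tissues overlapped by CPM, LV being higher in 3 of 4 mice, whereas after TMM SkM was higher in 4 of 4. The log2 difference with TMM was -0.44 (SE 0.16, 95% CI -0.82 to -0.06), a 1.35-fold lower level in LV that passed the test narrowly (adjusted p = 0.0467 in edgeR). With total counts it was 0.21 and did not pass, and relative to the median of all genes it was -0.46 under both scalings. The call was lost without E0del/+ replicate 1 (-0.47), E0del/+ replicate 3 (-0.51) or WT replicate 1 (-0.52), with no filter on low counts (-0.43) and with at least 10 counts required in every library (-0.38), and the adjusted p ranged from 0.0107 to 0.1135 over the alternatives.

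Hrc, the histidine-rich calcium-binding protein of the lumen, is the shortest of the gene bodies, on the plus strand of chromosome 7 from 45335269 to 45338972 (6 exons, 2430 bp). In LV it was at 1955.5, 1489.5 and 2052 CPM in E0del/+ replicates 1 to 3 and at 1868 and 1738 CPM in WT. In SkM it was at 1362, 1360.4 and 1287 CPM in E0del/+ and 1325 and 1266 CPM in WT. By CPM every LV was above every SkM library. After TMM the log2 difference was -0.20 (SE 0.20, 95% CI -0.66 to 0.27) and did not pass the test (adjusted p = 0.423 in edgeR, lower in LV in 3 of 4 mice). Total counts gave 0.46 with an adjusted p of 0.0136, the lowest of the alternatives, whose adjusted p reached 0.977. Without E0del/+ replicate 2 the TMM value was 0.0033, and relative to the median of all genes it was -0.22 under both scalings.

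**Figure D4:**
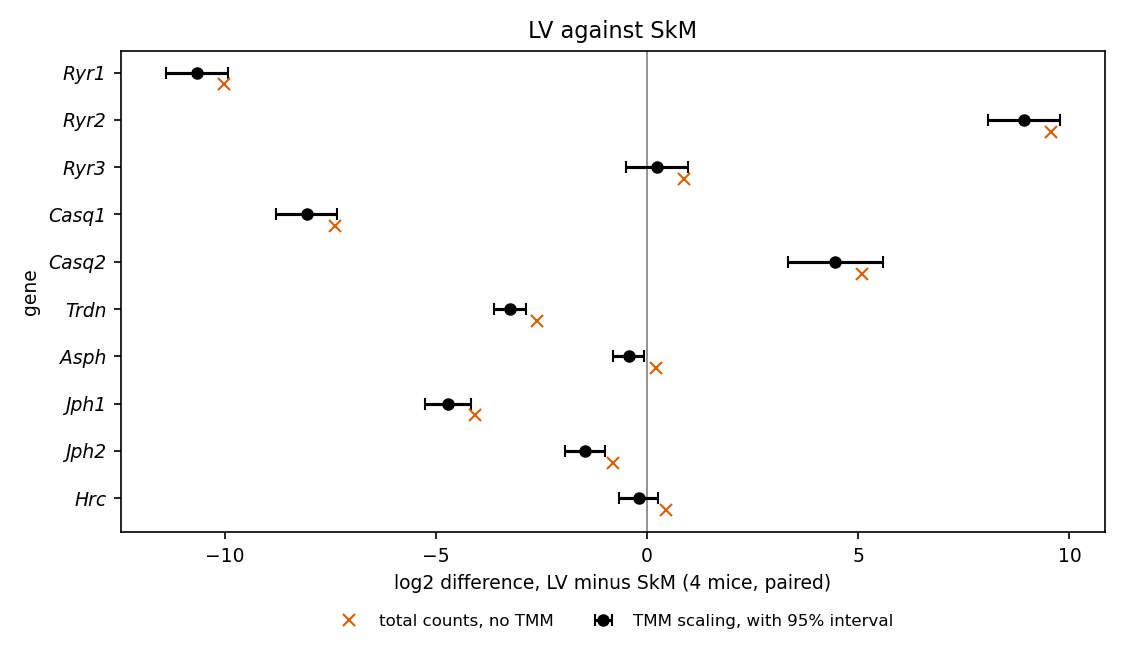
Log2 difference, LV minus SkM, of the 10 genes in 4 mice (points with 95% confidence intervals, TMM) and the same with total counts (crosses). Ryr2 and Casq2 lay at 8.93 and 4.46, Ryr1, Casq1, Trdn, Jph1 and Jph2 between -10.66 and -1.47, and Asph and Hrc crossed 0 with total counts.

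Per unit of exon length, the order of the 10 genes differed between the tissues. In LV, Hrc was the highest at 757.7 RPKM ± 101 (SD, n = 4), followed by Casq2 at 338.7 ± 54.1. Ryr2 (179.5 ± 44.4) and Jph2 (172.8 ± 33.3) came next with overlapping ranges, each above the other in 2 of 4 mice. Trdn (51.0 ± 5.15 RPKM) and Asph (20.9 ± 1.65) followed. Casq1 (9.45 ± 2.81) and Jph1 (5.55 ± 1.52) overlapped in range, with Casq1 above Jph1 in 4 of 4 mice, and Ryr1 (0.659 ± 0.0953) and Ryr3 (0.171 ± 0.0367) were last.

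In SkM, Casq1 led at 1551 RPKM ± 168 (SD, n = 4), followed by Ryr1 at 677.8 ± 48.2 and Hrc at 548.8 ± 14.5. Trdn (307.2 ± 9.57) and Jph2 (299.8 ± 11.2) overlapped in range, with Trdn above Jph2 in 3 of 4 mice, and Jph1 (90.9 ± 6.96), Asph (18.1 ± 0.868) and Casq2 (10.9 ± 5.44) did not overlap with their neighbours. Ryr2 (0.272 ± 0.219) and Ryr3 (0.0922 ± 0.0174) were last and overlapped, with Ryr2 above Ryr3 in 4 of 4 mice. In WT SkM replicate 2, outside these means, Hrc (521.1 RPKM) was above Ryr1 (487.1 RPKM) and Ryr3 (0.126 RPKM) above Ryr2 (0.122 RPKM). The 10 genes together held 0.697% ± 0.122 (SD, n = 4) of all counts in LV and 1.80% ± 0.0495 in SkM, with 0.972% in WT LV replicate 2 and 1.62% in WT SkM replicate 2.

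Summed over isoforms, each family was more abundant in SkM in 4 of 4 mice. The 3 receptors summed to 180.3 RPKM ± 44.4 (SD, n = 4) in LV and 678.2 ± 48.2 in SkM, a ratio of 3.76. Calsequestrins summed to 348.2 ± 52.4 and 1562 ± 165 RPKM, a ratio of 4.49, and junctophilins to 178.3 ± 34.7 and 390.7 ± 11.9 RPKM, a ratio of 2.19. RPKM rest on total counts, so these ratios carry the shift between scalings given above, whereas ratios within a library do not. Calsequestrin per receptor was 1.98 ± 0.327 in LV and 2.32 ± 0.401 in SkM, and higher in SkM in 3 of 4 mice. Junctophilin per receptor was 1.00 ± 0.117 in LV and 0.579 ± 0.0546 in SkM, and higher in LV in 4 of 4. The largest contrast was that of Hrc, at 4.31 ± 0.611 per receptor RPKM in LV and 0.811 ± 0.0403 in SkM, and at 2.18 ± 0.135 and 0.355 ± 0.0461 per calsequestrin RPKM. Trdn per receptor was 0.302 ± 0.109 in LV and 0.454 ± 0.0276 in SkM (higher in SkM in 3 of 4 mice), and Asph per receptor 0.121 ± 0.0247 and 0.0267 ± 0.00083 (higher in LV in 4 of 4). In WT SkM replicate 2, outside these means, calsequestrin per receptor was 4.07, junctophilin per receptor 0.890, within the LV range of 0.842 to 1.09, and Trdn per receptor 0.732, each above the other SkM libraries. These ratios were not tested.

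Profiles across 9 libraries, all but WT LV replicate 2, were compared for 7553 genes with a mean of at least 5 RPKM by the root mean square difference of centred log2 RPKM. The genes nearest to Ryr1 were Atp2a1, the calcium pump of fast fibres (0.20), Ampd1, an AMP deaminase of muscle (0.23), and Myh4, a fast myosin (0.23). Casq1 was in place 32, Jph1 in place 109 and Trdn in place 198. The genes nearest to Ryr2 were Mylk3, the cardiac myosin light chain kinase (0.24), Dsp, a desmosomal protein (0.28), and Pln, phospholamban (0.34), and Casq2 was in place 90.

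Genes that work beside the release unit were followed as 5 lists of 42 genes in all, 40 of which were tested in LV against SkM. Of these, 13 were higher in LV (31.5% of all genes tested) and 24 higher in SkM (29.8%). Their median log2 difference was -1.29 against 0.02 over all genes. Genes of triad and dyad structure leaned towards SkM, with 13 of the 14 tested higher there and a median of -1.80. With total counts 11 of them were higher in SkM and 1, Dysf, was higher in LV, Cav3 and Mtm1 also changing sign without passing the test. Of all 13375 genes tested, 1698 were then called higher in SkM and 7683 higher in LV. Relative to the median of all genes, Dysf was at -0.37, Cav3 at -0.38 and Mtm1 at -0.64 with TMM. Sypl2, a tetraspan protein of the triad, differed by -8.53 (SE 0.31), Jsrp1, a partner of the voltage sensor and Casq1, by -8.31 (SE 0.25), and Stac3, which couples the voltage sensor to RYR1, by -6.98 (SE 0.20), each in 4 of 4 mice.

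The voltage sensor exchanged subunits as the receptors did, with 2 of 7 genes higher in LV (31.5% of all genes tested), 5 higher in SkM (29.8%) and a median of -4.41. Cacnb2 and Cacna1c, of the cardiac L-type channel, were higher in LV by 6.79 (SE 0.22) and 6.61 (SE 0.25). Cacng1 and Cacna1s, of the skeletal channel, differed by -10.22 (SE 0.39) and -7.29 (SE 0.25), and Cacng6 of the same list by -6.94 (SE 0.28). For calcium uptake, 2 of 4 genes were higher in each tissue (31.5% of all genes in LV and 29.8% in SkM, median 0.62). Pln and Atp2a2 were higher in LV by 7.94 (SE 0.32) and 4.68 (SE 0.53), and the pump Atp2a1 and sarcolipin (Sln) differed by -10.60 (SE 0.35) and -3.44 (SE 0.36). All of these held in 4 of 4 mice.

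Modulators of the channel were mixed, with 6 of 12 higher in LV (31.5% of all genes tested), 4 higher in SkM (29.8%) and a median of 0.69. Sepn1, now named Selenon, a reticulum protein with selenium, S100a1, a calcium sensor, and Sri, which encodes sorcin, were higher in LV by 2.39 (SE 0.12), 2.31 (SE 0.16) and 1.46 (SE 0.20). Pde4d, a phosphodiesterase, and Calm3, a calmodulin gene, differed by -2.89 (SE 0.17) and -1.67 (SE 0.13). With total counts Fkbp1a, which binds the receptor, turned from -0.17 (-0.19 relative to the median of all genes) to 0.48 and made 7 of 12 higher in LV. Under that scaling, 7683 of all 13375 genes tested were called higher in LV. The other calcium release channels of the reticulum, the inositol trisphosphate receptors, were higher in LV in 3 of 3 genes (31.5% of all genes, median 1.25), with Itpr2 at 1.30 (SE 0.17), Itpr3 at 1.25 (SE 0.32) and Itpr1 at 0.49 (SE 0.17). Itpr1 passed narrowly (adjusted p = 0.0424 in edgeR, higher in 3 of 4 mice, 0.00255 to 0.427 over the alternatives). Its call was lost without E0del/+ replicate 1 (0.39), E0del/+ replicate 2 (0.37) or WT replicate 1 (0.48), and with the WT replicate 2 mouse (0.26) or its SkM library alone, without the pairing (0.23), added.

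E0del/+ and WT were compared within LV to ask whether deletion of the Ttn enhancer came with other levels of the release unit. Ryr2, Jph2 and Hrc, abundant in the heart, had E0del/+ values on both sides of WT replicate 1, by CPM and after TMM. For Casq2 all 3 E0del/+ LVs were below it by CPM, and 1 of 3 was above it after TMM. Casq1, the lesser calsequestrin in LV, was at 20.5, 21.2 and 19.2 CPM in E0del/+ against 9.91 CPM in the WT LV, 2.05-fold higher in 3 of 3. Fast fibre markers summed to 775.8, 743.1 and 1650.2 CPM in these E0del/+ LVs, against 588.3 CPM in the WT LV. Most of each sum was Acta1, at 593.0, 580.8 and 1481.6 CPM against 433.7 CPM. Myh4, another of these markers, was at 81.7, 71.2 and 70.3 CPM against 72.35 CPM, and the part of such transcripts was not tested. Without WT replicate 2, edgeR called 0 of 13890 genes, with 104 (0.749%) at an unadjusted p under 0.05, and DESeq2 called 0, with 75. Thus 0 of the 10 release unit genes passed, 1 of them at an unadjusted p under 0.05. This was Casq1, with a log2 difference of 1.04 (SE 0.25, 95% CI 0.49 to 1.59, adjusted p = 0.9998 in edgeR), above WT in 3 of 3. The spread came from the 3 E0del/+ libraries, and the single WT library was assumed to vary as they did.

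The differences of the other 9 genes in LV lay between -0.20 and 0.38. Ryr1 stood at 0.37 (SE 0.30), Ryr3 at 0.38 (SE 0.49) and Trdn at 0.19 (SE 0.27), each above WT in 3 of 3 E0del/+ LVs. With Casq1, 4 of the 10 genes were wholly above WT after TMM and 0 wholly below, against 18.4% above and 18.2% below of the 13890 genes tested, of which edgeR called 0 (104 at an unadjusted p under 0.05, DESeq2 0). Jph1 was at 0.35 (SE 0.36), Ryr2 at 0.08 (SE 0.44), Jph2 at 0.06 (SE 0.38), Hrc at -0.0079 (SE 0.36), Asph at -0.08 (SE 0.28) and Casq2 at -0.20 (SE 0.35). The 10 genes had a median of 0.14, with 7 above 0, against 0.00186 over all genes tested. Half-widths of the 95% intervals were 0.55 to 1.09 (median 0.78), so smaller differences could not be resolved. Within batch 1, the only one with a WT LV of use, 1 E0del/+ LV was set against 1 WT LV. E0del/+ was higher for 8 of 10 genes, from 0.057 for Trdn to 1.08 for Casq1, with Ryr2 at 0.40. The share over all genes was not taken for this pair, and in the fit 6991 of 13890 genes were above 0.

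E0del/+ replicate 2 had the lowest LV values of Ryr2, Asph, Jph1, Jph2 and Hrc and, among the 4 LVs, of Casq2. In the same library endothelial markers (1458 CPM against 857.9 to 1064 CPM in the other 3, Cdh5 the most abundant) and fibroblast markers (1067.5 against 599.5 to 913.3 CPM, Dcn the most abundant) were highest. The sum of ventricular markers (79803 against 84291 to 92439 CPM) was lowest there, as were Myh6 (43021.8 against 50082.5 to 54802.6 CPM) and Mybpc3. Tnni3 (3021.6 against 2102.5 to 2210.6 CPM), Tnnt2 and Myl3 were instead highest there, and Actc1 and Nppb lay between. The part of these cell types was not tested. The sign turned without E0del/+ replicate 2 for Asph (0.05) and Hrc (0.17), without E0del/+ replicate 1 for Ryr2 (-0.12) and without E0del/+ replicate 3 for Ryr2 (-0.03) and Jph2 (-0.15). Leaving out E0del/+ replicate 1, 2 or 3 gave 4, 4 or 3 called genes, of which 0 were release unit genes. These were Kdm5d, Eif2s3y, Uty and Ddx3y on chromosome Y, then Col14a1, Csdc2, Acta2 and Cyp26b1, then Tfrc, Cyp26b1 and Lgals4, named after their values were seen. E0del/+ replicate 3, the only one of these LVs with low Xist (4.88 CPM against 518.3 CPM in WT replicate 1), held Ddx3y at 108.9 CPM, against 0.326 to 1.27 CPM in the other 3. With Xist level as a block, Casq1 was at 1.03 and Ryr2 at -0.035. As E0del/+ replicate 3 was alone on its side of this block, the fit nearly repeated the one without that library.

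With WT LV replicate 2 kept, the skeletal isoforms dominated the comparison. Casq1 turned to -4.41 (SE 1.23), Ryr1 to -6.94 (SE 1.63), Jph1 to -1.67 (SE 0.66) and Trdn to -0.70 (SE 0.37), against 777.0, 2396, 145.6 and 513.4 CPM in that library. With the replicate block these were -2.25, -3.87, -1.40 and -0.62. Neither fit called a release unit gene (adjusted p = 0.9974 and 0.9976 in edgeR for these 4), and the block called 5 other genes, Mstn, Kdm5d, Eif2s3y, Uty and Ddx3y.

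In SkM, E0del/+ and WT were compared to ask the same of the skeletal forms. Ryr1 was at 10704, 11327 and 9807 CPM in E0del/+ against 9813 and 7482 CPM in WT, and after TMM all 3 E0del/+ libraries were above both WT libraries. Ryr3 was at 1.42, 1.20 and 1.27 CPM against 1.80 and 1.94 CPM, all 3 below. Casq1 was at 2654, 2615 and 3199 CPM against 3159 and 3711 CPM, overlapping. EdgeR called 0 of 13154 genes, with 114 (0.867%) at an unadjusted p under 0.05, and DESeq2 called 0, with 151. Of the 10 genes 0 passed and 0 had an unadjusted p under 0.05. Their median was 0.04, with 6 above 0, against -0.0051 over all genes tested.

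Ryr1 differed by 0.31 (SE 0.18, 95% CI -0.13 to 0.76, adjusted p = 0.9998 in edgeR, above WT in 3 of 3), by 0.19 in batch 1, 0.54 in batch 2 and 0.36 with the replicate block. Ryr3 differed by -0.54 (SE 0.42), by -0.29 and -0.76 within the batches and -0.52 with the replicate block. Casq1 differed by -0.29 (SE 0.22), by -0.19 and -0.57 within batches and -0.38 with the replicate block. Over the alternatives, Casq1 ran from -0.52 to -0.025. For these genes the batches had the same direction, as for 6 of the 10. All E0del/+ libraries lay above both WT libraries for 6.59% of the 13154 genes tested and below both for 5.34%, against 1 of 10 each here, Ryr1 and Ryr3. Ryr2 and Casq2, low in SkM, were the least certain. Ryr2 differed by 0.72 (SE 0.76), by 1.45 in batch 1 and -0.15 in batch 2, and by -0.31 without E0del/+ replicate 1. Casq2 differed by 0.40 (SE 0.81), by -0.24 in batch 1, 2.47 in batch 2 and 1.07 with the replicate block, and by -0.15 without E0del/+ replicate 2 and -0.28 without WT replicate 2. With Xist level as a block Casq2 was at 0.14 (SE 0.23) and Ryr2 at 0.52 (SE 0.72).

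The remaining differences in SkM were small. Jph1 was at 0.10 (SE 0.18), Hrc at 0.05 (SE 0.15), Asph at 0.03 (SE 0.15), Trdn at -0.08 (SE 0.20) and Jph2 at -0.14 (SE 0.18). With the replicate block Jph1 was at 0.08, Hrc and Asph at 0.07, Trdn at -0.06 and Jph2 at -0.17. Leaving out WT replicate 1 turned Jph1 (-0.09), Hrc (-0.04) and Asph (-0.10), leaving out WT replicate 2 turned Trdn (0.21) and Jph2 (0.07), and leaving out E0del/+ replicate 2 turned Asph (-0.04). Half-widths of the 95% intervals were 0.37 to 2.02 (median 0.48), widest for Casq2. The Jph1 share of junctophilin RPKM was 23.3%, 24.8% and 23.9% in E0del/+ and 21.0% and 21.2% in WT, without overlap. The Ryr3 share of receptor RPKM did not overlap either, at 0.01317%, 0.01055% and 0.01287% against 0.01827% and 0.0259%. Shares of Ryr1, Ryr2 and Casq1 overlapped. How often shares of other genes do not overlap was not counted, and these differences were not tested. The replicate block called 1 gene, Eif2s3y on chromosome Y (-6.60), and 0 release unit genes.

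**Figure D5:**
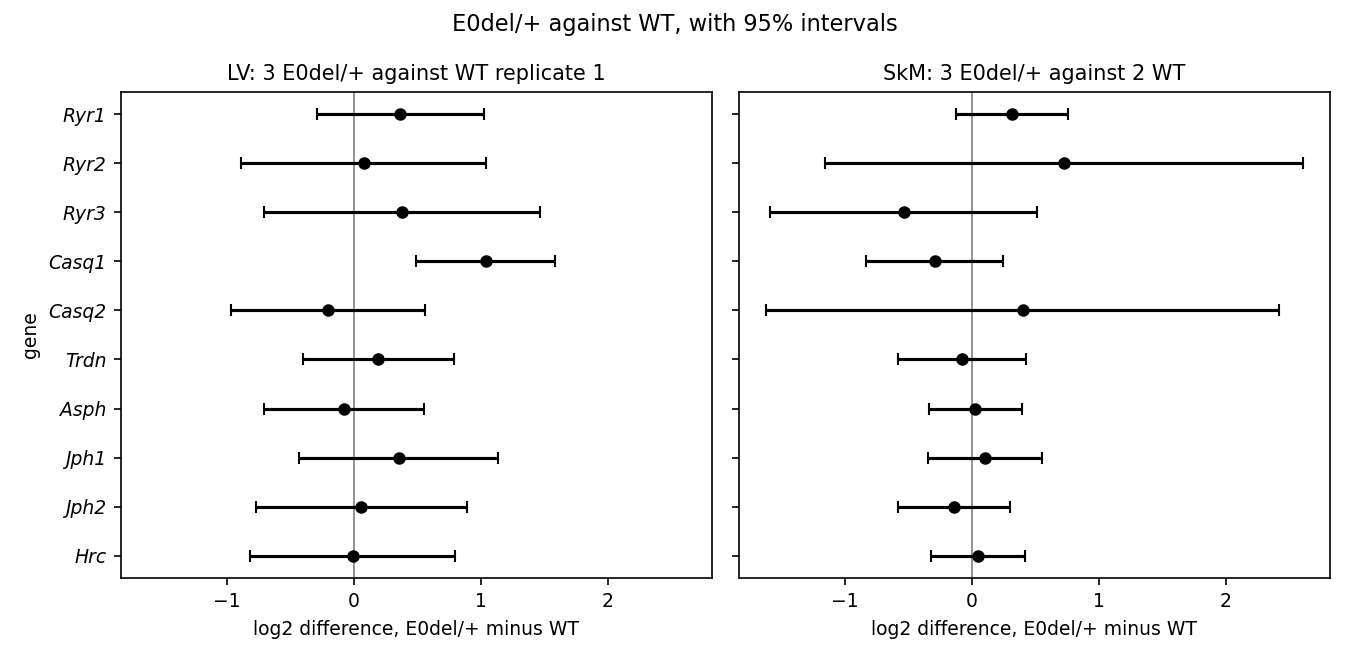
Log2 difference, E0del/+ minus WT, of the 10 genes in LV (3 E0del/+ libraries against WT replicate 1) and SkM (3 against 2), points with 95% confidence intervals. The interval of Casq1 in LV ran from 0.49 to 1.59, and the other 19 intervals included 0.

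Of the 5 lists around the release unit, 0 of 39 genes tested passed in LV and 0 of 39 in SkM, and 0 had an unadjusted p under 0.05 in either (edgeR, with 0 of all genes called by DESeq2). Named for the smallest unadjusted p in LV, Cacng6 differed by 1.86 (SE 0.97), Sypl2 by 0.80 (SE 0.54) and Sln by 1.54 (SE 1.28), from 2 to 48 counts per library. With WT LV replicate 2 kept these turned to -3.17, -4.81 and -0.25. In SkM, Pln differed by 0.84 (SE 0.37), at 23.1, 9.59 and 12.5 CPM in E0del/+ against 9.29 and 7.49 CPM in WT, and Itpr1 differed by -0.60 (SE 0.34). All 4 calcium uptake genes were above 0 in SkM, with a median of 0.79, and Atp2a2 among them followed the slow fibre markers described above.

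Whether the genotype difference itself differed between tissues was tested by an interaction in the 4 mice, of which 1 was WT and was assumed to vary as the 3 E0del/+ mice did. EdgeR called 0 of 13375 genes, with 155 (1.16%) at an unadjusted p under 0.05, and 0 of the 10 release unit genes at either level. DESeq2 called 2 genes, Agtr1a and Ddx3y, with 102 at an unadjusted p under 0.05. The largest term was that of Casq1, whose difference in LV exceeded that in SkM by 1.01 (SE 0.51), and Ryr3, above WT in 3 of 3 LVs and below in 3 of 3 SkM libraries, had a term of 0.65 (SE 0.78). The other 8 lay between -0.32 and 0.22. With all 5 mice, WT LV replicate 2 included, Casq1 turned to -1.95, Ryr1 to -4.17 and Casq2 to -0.47, and Jph1 moved from -0.085 to -1.26 and Trdn from -0.081 to -0.49. Total counts moved the median of all genes by 0.19. Without E0del/+ replicate 3 edgeR called 70 genes, 0 of them in the release unit.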

How the data were processed

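Poly(A) RNA of LV and SkM was measured by RNA-Seq, with 1 library per tissue of each of 5 mice. Per the labels, RNA was taken with TRIzol, went through 2 rounds of poly(A) selection, was made into double-stranded cDNA and was prepared with Nextera XT, which keeps no strand. The authors deposited a count of reads for each gene and library; their notes name STAR, DESeq2 and mm10 without role or version, and the counting program is not given. The RPKM values deposited by the authors are these counts scaled for library total and for the summed length of the exons of a gene.

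From the counts, edgeR 4.0.16 (filterByExpr, TMM, quasi-likelihood F-test, Benjamini-Hochberg threshold 0.05) compared LV with SkM paired by mouse in the 4 mice other than WT replicate 2, E0del/+ with WT within each tissue, and the interaction of both. WT LV replicate 2 was left out of these fits and is given apart. Isoform shares were taken from RPKM and compared by exact two-sided sign permutation within mice. The members and lists were chosen with earlier results of these data known. Beside the 10 genes and Ttn, the text names per list up to 3 genes past the threshold with the largest log2 difference towards each tissue, and for E0del/+ against WT, where no list gene passed, up to 3 over all lists with the smallest unadjusted p in each tissue. Likeness to Ryr1 and Ryr2 was ranked on log2 RPKM with 0.1 added. The pairing of tissues by mouse rests on replicate numbers: profiles of the tissues of a mouse correlated at -0.101 to 0.0918 across genes, and those of WT and E0del/+ in a batch at 0.031 and -0.118 in LV and 0.518 and 0.31 in SkM, genes not being independent replicates.

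Alternatives were DESeq2 1.42.0, RLE and total-count scaling, TMM without the 100 most abundant genes, no filter, at least 10 counts in every library, each library or mouse left out, WT replicate 2 kept, the replicate block added or dropped, 1 fit over 9 libraries, and a block by Xist level (above or below 100.0 CPM). Marker lists were written by hand for skeletal fibre types, ventricle, atrium, vessels, connective tissue, fat, blood, nerve and satellite cells. Positions, exon numbers and exon lengths are those deposited with the counts (mm10), and overlaps of these exons are with genes of GENCODE M21. The scripts were tested on simulated data. R 4.3.3 and Python 3.11.15 were used.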

Additional observations from a re-analysis of the deposited data

Results flagged for a closer look

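A sample stood far from the rest of its group in 10 of the 40 groups of libraries examined, where chance alone flags about 1 in 20 independent groups. Shares and CPM values come from the same counts, so these groups are not independent and the 2 rates cannot be set against each other. In 8 of the 10 the sample was WT LV replicate 2, which had been set apart before this check. Among the 5 LVs it was far above the others for Ryr1 (2396 CPM), Casq1 (777.0 CPM), Trdn (513.4 CPM) and Jph1 (145.6 CPM). Its shares of family RPKM stood apart likewise, at 51.3% for Ryr1, 63.1% for Casq1 and 13.5% for Jph1, all above the other LVs, and at 48.7% for Ryr2, below them. In the other 2 groups it was SkM of E0del/+ replicate 1, where Ryr2 was at 9.97 CPM and held 0.085% of receptor RPKM, the highest of the 5 SkM libraries in both. The causes were not tested.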

How the results depend on the processing

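For LV against SkM, 6895 to 9381 genes were called over 13 alternatives, all within 1.5 times the count given. Values were tallied for the 10 release unit genes and the list genes named for the largest difference. Of these values, 385 kept direction and side of the threshold, 10 lost their call and 3 changed sign. Outside this tally, Fkbp1a, Dysf, Cav3 and Mtm1 also changed sign with total counts, to 0.48, 0.31, 0.29 and 0.03. The 42 isoform shares kept their direction. With total counts Asph stood at 0.21 and Hrc at 0.46, and leaving out 1 mouse gave Hrc -0.29 to 0.0033.

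For E0del/+ against WT in LV, 153 values were kept and 26 changed sign, none of them called. With WT LV replicate 2 kept, Ryr1 stood at -6.94, Casq1 at -4.41, Casq2 at 0.029, Trdn at -0.70, Jph1 at -1.67, Jph2 at -0.12, Cacng6 at -3.17, Sypl2 at -4.81 and Sln at -0.25. With the replicate block as well, 5 genes were called, and Ryr1 stood at -3.87, Ryr2 at -0.080, Ryr3 at -0.043, Casq1 at -2.25, Trdn at -0.62, Jph1 at -1.40, Jph2 at -0.35, Cacng6 at -2.11 and Sypl2 at -3.16. A block by Xist level called 3 genes and gave Ryr2 -0.035 and Jph2 -0.15. In LV this block sets E0del/+ replicate 3 alone, so that it nearly repeats leaving that library out. A fit over 9 libraries gave Hrc 0.0009 in LV and Asph -0.0003 in SkM. Without 1 library, Ryr1 in LV ran from 0.27 to 0.48, Ryr3 from 0.16 to 0.51 and Trdn from 0.10 to 0.26. Casq2 ran from -0.38 to -0.020 and Jph1 from 0.074 to 0.60, also without a change of sign. Leaving out 1 library called 3 to 4 genes and gave Ryr2 -0.12 to 0.34, Asph -0.18 to 0.051, Jph2 -0.15 to 0.28 and Hrc -0.15 to 0.17, the single WT library being assumed to vary like the others.

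In SkM, 185 values were kept and 11 changed sign. The replicate block called 1 gene. Leaving out 1 library gave Ryr2 -0.31 to 1.08, Casq2 -0.28 to 1.75, Trdn -0.32 to 0.21, Asph -0.10 to 0.17, Jph1 -0.090 to 0.33, Jph2 -0.33 to 0.073, Hrc -0.043 to 0.15 and Ttn -0.33 to 0.02.

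For the interaction, 87 values were kept and 13 changed sign. DESeq2 called 2 genes. With total counts Trdn stood at 0.11, Jph1 at 0.10 and Jph2 at 0.073. With all 5 mice Ryr1 stood at -4.17, Casq1 at -1.95 and Casq2 at -0.47. Leaving out 1 mouse called 0 to 70 genes (edgeR, with 117 to 541 at an unadjusted p under 0.05; DESeq2 called 2 with the 4 mice) and gave Ryr1 -0.091 to 0.27, Ryr2 -0.58 to 0.33, Casq2 -0.54 to 0.95, Jph1 -0.30 to 0.27, Jph2 -0.27 to 0.18 and Hrc -0.40 to 0.025.

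The causes of these changes were not tested. The interaction without WT replicate 1, which leaves no WT mouse, and a replicate block in LV without WT replicate 2, which leaves no residual degrees of freedom, were not run. Ryr3 rests on 18 to 39 counts per library, which limits its precision.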
